A study of Mus musculus with 2 samples.

Results

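Fkbp5, Tsc22d3, Sgk1, Zbtb16, Klf9, Mt1, Mt2, Errfi1 and Dusp1 are 9 genes whose transcription is raised by glucocorticoids in many tissues. They were taken as a named list, drawn up with earlier results of these data known, and all 9 were found among the 55536 annotated genes of the tables. Total RNA of the adrenal gland was sequenced from 2 adult female mice of the B6CASTF1/J strain, a cross of C57BL/6J and CAST/EiJ, aged 8 to 10 months. Each library was made from 300 ng of RNA with ERCC spike-in RNA added. Both animals belong to 1 group with no treatment, so the data give levels and a difference between animals, with no comparison of conditions and no p-values. The labels give the animals separate numbers but the same donor code, so the SDs over animals measure the spread between these 2 samples, which may be partly technical.

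Glucocorticoids act through the glucocorticoid receptor, a nuclear receptor that waits in the cytoplasm in a complex with heat shock protein 90 and its co-chaperones. Once bound by hormone it moves to the nucleus, where a dimer can bind a pair of inverted 6-base arms in DNA and raise transcription of nearby genes. The adrenal cortex makes the hormone itself, corticosterone in mice, and its cells are exposed to it at its source. The 9 genes act at different points: Fkbp5 on the receptor, Tsc22d3, Klf9 and Zbtb16 on transcription, Sgk1, Errfi1 and Dusp1 on kinase signalling, and Mt1 and Mt2 on metal ions.

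All 9 genes were expressed in both glands, most of them above the level of a typical gene. Levels are given in TPM, a unit scaled by transcript length and by the library's total, which can be compared between genes. The median of the 9 genes was 26.8 TPM in replicate 1 and 28.2 TPM in replicate 2. The median of the 11996 protein-coding genes at 1 TPM or more in both animals was 11.4 and 12.2 TPM. The metallothionein Mt1 stood highest and the kinase inhibitor Errfi1 lowest, 8.21-fold apart in mean level, and 7 of the 9 genes were at 10 TPM or more in both animals. Zbtb16 differed most between the animals, 1.87-fold higher in replicate 1, and Errfi1 next, 1.502-fold higher in replicate 2.

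**Figure D1:**
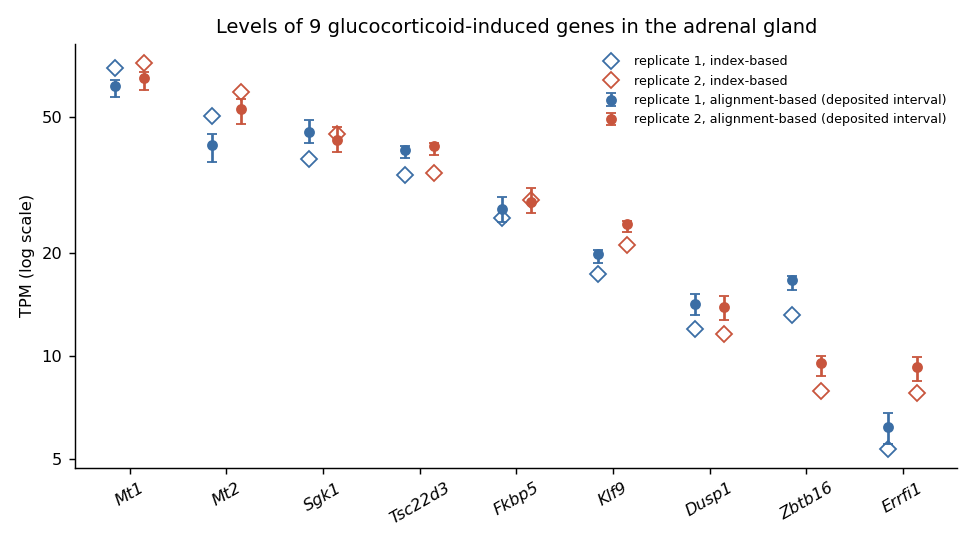
TPM (log scale) of the 9 genes in each animal, in order of mean level; filled circles are the alignment-based gene table with its deposited interval within the library, open diamonds the index-based transcript table summed per gene. Mt1 lies at 61.7 and 65.2 TPM and Errfi1 at 6.17 and 9.29 TPM, and the animals stand clearly apart for Zbtb16, at 16.7 and 9.51 TPM.

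The libraries held 40453707 and 34319787 expected counts, of which the 9 genes took 17407 and 14840, or 0.0430% and 0.0432%. Every member had a mean count of at least 100. Cortex markers summed to 25676 and 26832 TPM and chromaffin markers to 2144 and 1928 TPM, with all 12 genes of these lists at 1 TPM or more in both animals. Adipocyte markers summed to 960 and 509 TPM, and 3 of the 6 were at least 2-fold lower in replicate 2. In whole glands, fewer cells of a type and less RNA per cell cannot be told apart.

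Fkbp5 encodes a co-chaperone of heat shock protein 90 that lowers the receptor's affinity for hormone, and it is a standard readout of receptor activity. It lies at chr17:28399094-28517527 on the minus strand (mm10, as all gene coordinates here). Its level was 26.8 TPM in replicate 1 and 28.2 TPM in replicate 2, or 27.5 ± 0.983 TPM (SD, n = 2). The intervals deposited with these values, 24.7 to 29.1 and 26.2 to 30.9 TPM, overlapped. The gene stood above 76.8% and 77.3% of expressed protein-coding genes.

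The largest part of the Fkbp5 signal came from 1 of its 15 annotated transcripts. Fkbp5-201 held 67.3% and 71.5% of the gene's TPM in the alignment-based table. Transcripts annotated as protein coding held 75.3% and 77.4% of it, and those annotated as processed transcripts 24.3% and 21.4%. The index-based table, made from the reads without an alignment file, also placed Fkbp5-201 first in both animals, with smaller shares of 53.7% and 50.3%.

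Tsc22d3 encodes GILZ, a leucine zipper protein that mediates part of the anti-inflammatory action of glucocorticoids. It lies at chrX:140539528-140600659 on the minus strand. Its level was 40.1 TPM in replicate 1 and 41.0 TPM in replicate 2, or 40.5 ± 0.686 TPM (SD, n = 2), so the animals differed by little and their intervals overlapped. Its transcripts began at several places. Tsc22d3-201 led with 23.6 and 22.6 TPM. Tsc22d3-203, which starts farthest upstream, followed in replicate 1 with 9.15 TPM and stood at 8.78 TPM in replicate 2, beside 6.39 and 9.01 TPM for Tsc22d3-202. The share of the upstream start was 22.8% and 21.4% in the alignment-based table and 33.0% and 28.7% in the index-based one, so its size depended more on the table than on the animal.

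Klf9 encodes a Krüppel-like zinc finger repressor that follows the daily rhythm of corticosterone in many tissues, and it lies at chr19:23141226-23168134 on the plus strand. Its level was 19.8 TPM in replicate 1, with an interval of 18.7 to 20.4, and 24.3 TPM in replicate 2, with an interval of 23.0 to 24.8. Replicate 2 was higher and the intervals did not overlap. The log2 ratio of replicate 2 over replicate 1, taken on expected counts after TMM scaling, was 0.23 with a 95% counting interval of 0.16 to 0.30. The coding transcript Klf9-201 held 94.9% and 97.1% of the gene's TPM.

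Zbtb16 encodes PLZF, a zinc finger repressor whose induction by glucocorticoids is strong in many cell types. It lies at chr9:48654297-48836222 on the minus strand. Its level was 16.7 TPM in replicate 1, with an interval of 15.6 to 17.1, and 9.51 TPM in replicate 2, with an interval of 8.70 to 9.97. The intervals were well apart, and the counts behind them were 2662 and 1288. The log2 ratio was -0.90 with a counting interval of -1.0002 to -0.81, and 1.88% of the 12645 genes with a mean count of 100 or more had a larger absolute ratio.

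Both annotated Zbtb16 transcripts were lower in replicate 2. Zbtb16-201 was at 10.9 and 6.17 TPM and Zbtb16-202 at 5.77 and 3.35 TPM, so the share of Zbtb16-201 stayed at 65.3% and 64.8%. The index-based table gave 13.2 and 7.90 TPM for the gene, the same direction. Several marker lists moved with Zbtb16: beside the adipocyte list, fibroblast and capsule markers summed to 131 and 87.5 TPM with 1 of 5 called lower by the criteria below, smooth muscle markers to 62.6 and 43.5 TPM with 2 of the 3 that had enough counts called lower, and Schwann cell markers to 8.71 and 5.27 TPM with 1 of 2. The median log2 ratio was -0.99 for adipocyte, -0.59 for fibroblast and -1.04 for smooth muscle markers with enough counts. Their part in the lower level of Zbtb16 was not tested.

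Sgk1 encodes a serum- and glucocorticoid-regulated kinase that raises sodium transport, and it lies at chr10:21882184-21999903 on the plus strand. Its level was 45.2 TPM in replicate 1 and 42.9 TPM in replicate 2, or 44.1 ± 1.65 TPM (SD, n = 2), with overlapping intervals of 42.0 to 48.9 and 39.4 to 46.6. On scaled counts, 2621 against 1977, the log2 ratio was -0.26 with a counting interval of -0.35 to -0.18. The index-based TPM turned this direction, with 37.6 and 44.7 TPM and a log2 ratio of 0.25, although the counts of the same table gave -0.21. Which animal had more Sgk1 RNA per length was therefore not settled by these tables.

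Sgk1 has 13 annotated transcripts from 9 start regions, and the tables divided the gene among them differently. In the alignment-based table Sgk1-210 led in both animals with 14.3 and 8.74 TPM. In the index-based table Sgk1-213 led in replicate 1 with 11.7 TPM and Sgk1-209 in replicate 2 with 13.3 TPM. The start shared by Sgk1-210 and Sgk1-213 held 52.0% and 40.4% of the gene's TPM by alignment and 44.4% and 27.8% by index, lower in replicate 2 in both. The start of Sgk1-201, Sgk1-207 and Sgk1-209 held 38.8% and 33.9% by alignment but 30.9% and 46.3% by index. The start of Sgk1-202 was a minor one in every table and animal, at 2.89 and 3.16 TPM by alignment and 3.11 and 3.31 TPM by index.

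**Figure D2:**
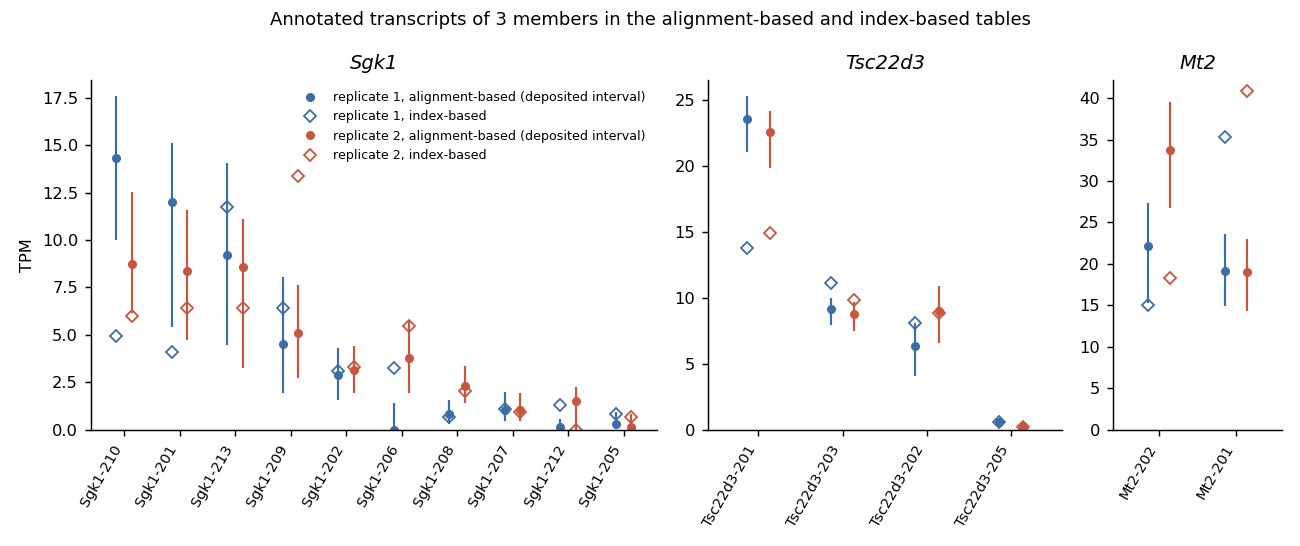
TPM of the annotated transcripts of Sgk1, Tsc22d3 and Mt2 that reached 0.5 TPM in either table and animal; filled circles with lines are alignment-based values with deposited intervals, open diamonds index-based values, blue replicate 1 and red replicate 2. Mt2-202 stands above Mt2-201 in both animals by alignment and below it in both by index, and Sgk1-210 is at 14.3 and 8.74 TPM by alignment.

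The promoter of Sgk1-202 is shown because it was the 1 window of these genes with a full glucocorticoid response element as searched here: AGAACA, then 3 bases, then TGTTCT. This motif reads the same on both strands apart from its spacer and contains 2 matches of its 6-base arm TGTTCT, 1 on each strand. RefSeq promoter windows of build GRCm38.p6, which run from 250 bases before to 50 bases after a start, were found for 8 of the 9 genes, 16 windows in all. The full motif occurred in 3 of 32851 mouse windows, 0.00913%, and the arm alone in 19.0%. The sequence below is chr10:21993640-21993889 on the plus strand, with the motif, at positions -189 to -175 from the start, in capitals. A further single arm at -242 to -237 is left in lower case.

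Sgk1-202 promoter: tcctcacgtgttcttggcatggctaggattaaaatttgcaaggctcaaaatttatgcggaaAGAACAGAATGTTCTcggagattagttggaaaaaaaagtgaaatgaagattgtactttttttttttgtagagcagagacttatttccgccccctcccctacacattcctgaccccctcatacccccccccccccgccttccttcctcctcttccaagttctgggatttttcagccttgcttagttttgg

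Single arms also occurred in Sgk1 windows at the starts of Sgk1-204 and of Sgk1-203 and Sgk1-212, and in the window at the upstream start of Tsc22d3-203. Neither the full motif nor the arm was found in the windows of Fkbp5, Klf9, Errfi1, Dusp1, Mt1 or Mt2, which says only that these letters are not in those windows. The Sgk1-202 window with the full motif was the start of 6.39% and 7.37% of the gene's TPM by alignment. The motif also lies upstream of the next annotated start, that of Sgk1-201 at chr10:21994666. The start region of Sgk1-201 held 38.8% and 33.9% by alignment and 30.9% and 46.3% by index. Which start the motif may serve was not tested. A match describes letters and is not a binding site.

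Errfi1 encodes a feedback inhibitor of the epidermal growth factor receptor family, and it lies at chr4:150853919-150868892 on the plus strand. It was the lowest of the 9 genes, at 6.17 TPM in replicate 1, with an interval of 5.54 to 6.80, and 9.29 TPM in replicate 2, with an interval of 8.45 to 9.91. Replicate 2 was higher and the intervals were apart. The log2 ratio was 0.59 with a counting interval of 0.44 to 0.74, from 623 and 847 counts, and 6.18% of genes had a larger absolute ratio. The full-length Errfi1-201 was at 5.31 and 8.60 TPM, while the processed transcript Errfi1-203 was at 0.86 and 0.68 TPM.

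Dusp1 encodes a phosphatase that switches off MAP kinases, and it lies at chr17:26505590-26562128 on the minus strand. Its level was 14.2 TPM in replicate 1 and 13.9 TPM in replicate 2, or 14.05 ± 0.233 TPM (SD, n = 2), with overlapping intervals. On scaled counts, 950 against 768, the log2 ratio was -0.16 with a counting interval of -0.30 to -0.02. A large part of this signal was assigned to transcripts annotated as retaining an intron, 44.1% and 37.7% by alignment and 45.7% and 41.7% by index. Coding Dusp1-202 held 55.9% and 62.3% by alignment. Over all annotated Dusp1 transcripts together, 11 of 3311 exon bases overlap Ergic1 on the opposite strand.

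**Figure D3:**
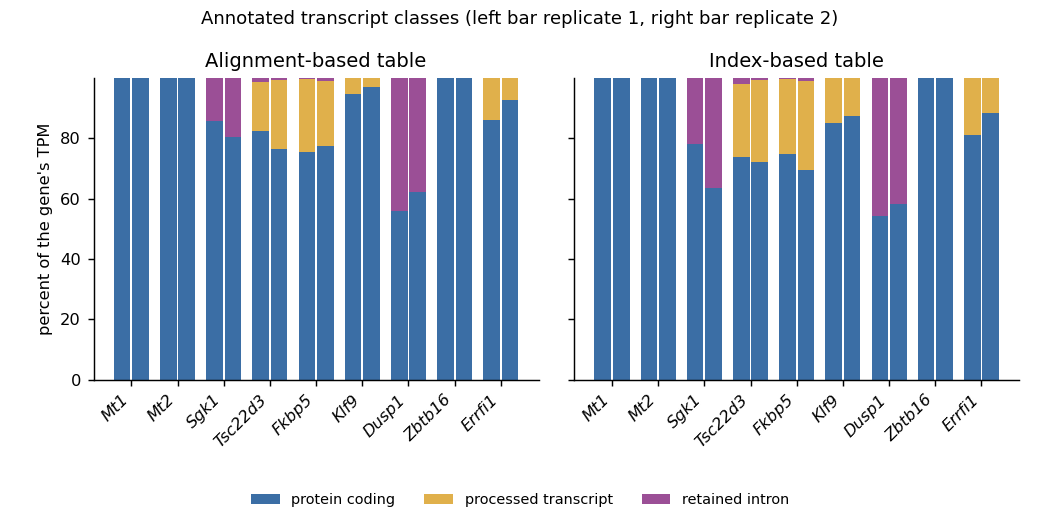
Percent of each gene's TPM held by transcripts annotated as protein coding, processed transcript or retained intron, by table; the left bar of each pair is replicate 1 and the right bar replicate 2. Dusp1 has the largest retained-intron share in both tables, 44.1% and 37.7% by alignment, and Mt1, Mt2 and Zbtb16 have coding transcripts only.

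Mt1 and Mt2 encode metallothioneins, small cysteine-rich proteins that bind zinc, copper and cadmium, and their genes answer both to glucocorticoids and, through the factor MTF1, to metals. They are neighbours on the plus strand, Mt2 at chr8:94172664-94173568 and Mt1 at chr8:94179082-94180327. Mt1 had a level of 61.7 TPM in replicate 1 and 65.2 in replicate 2, or 63.5 ± 2.45 TPM (SD, n = 2), above 91.5% and 92.0% of expressed protein-coding genes. Mt2 was at 41.4 TPM, with an interval of 36.9 to 44.5, and 52.9 TPM, with an interval of 47.6 to 56.6. The animals overlapped for Mt1 and stood apart for Mt2, which was higher in replicate 2 with a log2 ratio of 0.21 and a counting interval of 0.04 to 0.38. Mt1 exceeded Mt2 in both animals, 1.49-fold and 1.23-fold by alignment and 1.38-fold and 1.21-fold by index.

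The coding sequences of Mt1-201 and Mt2-201 are shown because near-identical copies could have shared reads. They come from the reference transcripts of GENCODE M21 and have 186 bases each. Capitals mark the 38 bases at which they differ, and the other 148, 79.6%, are identical.

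Mt1-201 coding: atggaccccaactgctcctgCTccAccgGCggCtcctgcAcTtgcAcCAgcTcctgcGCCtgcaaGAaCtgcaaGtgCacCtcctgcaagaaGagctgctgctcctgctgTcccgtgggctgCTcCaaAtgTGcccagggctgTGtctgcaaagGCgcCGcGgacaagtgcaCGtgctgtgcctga

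Mt2-201 coding: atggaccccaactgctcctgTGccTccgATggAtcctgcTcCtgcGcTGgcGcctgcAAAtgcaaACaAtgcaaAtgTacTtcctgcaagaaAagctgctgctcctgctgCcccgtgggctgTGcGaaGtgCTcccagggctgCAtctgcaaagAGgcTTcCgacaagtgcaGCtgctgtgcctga

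The longest run the pair share is 20 bases, and neither shares a run of 100 bases on its own strand with any other gene. The antisense gene Gm45774 covers 432 of the 588 exon bases of Mt2, but was at 0.01 and 0.02 TPM. The 2 tables disagreed on the Mt2 transcripts: Mt2-202 led by alignment with 53.7% and 63.9%, and Mt2-201 led by index with 70.2% and 69.0%. Mt1-201 held 95.8% and 97.98% of Mt1 by alignment. The index-based levels were higher, at 69.7 and 71.8 TPM for Mt1 and 50.3 and 59.2 TPM for Mt2.

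The promoters of Mt1 and Mt2 held several matches of the core of the metal response element, searched as TGCGCNC and TGCACNC on both strands. Mt2 had 4 and Mt1 had 3 in their 300-base windows. At least 1 core occurred in 25.7% of all windows, 3 or more in 1.97% and 4 or more in 0.517%. The stretches below end before the first annotated start, so they hold 1 of the 3 matches of Mt1 and 3 of the 4 of Mt2, in capitals. The boundary is set by annotation only, and where transcription begins was not tested. The other Mt1 matches lie at positions 3 to 9 and 21 to 27 from the RefSeq start. They are upstream of the annotated starts of Mt1-203 and Mt1-202, at chr8:94179211 and chr8:94179241. They are chr8:94178839-94179081 and chr8:94172368-94172617, both on the plus strand of GRCm38.p6.

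Mt1 promoter: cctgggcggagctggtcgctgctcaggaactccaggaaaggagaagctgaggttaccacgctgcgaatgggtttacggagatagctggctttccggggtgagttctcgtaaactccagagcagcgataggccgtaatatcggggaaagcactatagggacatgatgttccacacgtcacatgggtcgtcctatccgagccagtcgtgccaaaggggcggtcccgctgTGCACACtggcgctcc

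Mt2 promoter: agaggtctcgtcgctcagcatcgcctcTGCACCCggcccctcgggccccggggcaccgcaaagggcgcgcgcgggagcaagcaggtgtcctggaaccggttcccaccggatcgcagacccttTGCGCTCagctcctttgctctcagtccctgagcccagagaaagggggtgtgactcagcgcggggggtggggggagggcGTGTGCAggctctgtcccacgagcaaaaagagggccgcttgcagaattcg

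Single metal cores were also matched in the windows of Dusp1 and of Sgk1-201.

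In order of mean level the genes ran Mt1, Mt2, Sgk1, Tsc22d3, Fkbp5, Klf9, Dusp1, Zbtb16 and Errfi1. By alignment, the values of the 2 animals overlapped for Mt2 and Sgk1 and for Dusp1 and Zbtb16, so these neighbours could not be ordered. By index, Mt2 was above Sgk1 in both animals, at 50.3 and 59.2 against 37.6 and 44.7 TPM. Dusp1 and Zbtb16 had no common order there either. The deposited intervals also overlapped in replicate 2 for Sgk1 and Tsc22d3 and for Zbtb16 and Errfi1. The other neighbours kept their order in both animals with intervals apart.

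Differences between the animals were judged by 3 criteria together. The ratio on scaled counts had to reach 2-fold, the mean count had to reach 100, and the TPM intervals of the animals had to be apart. None of the 9 genes met them, where 151 of 12645 genes, 1.19%, did. Zbtb16 came nearest. Intervals alone were apart for 4 of the 9 genes, lower in replicate 2 for Zbtb16 and higher for Mt2, Klf9 and Errfi1, beside 27.4% of all genes. The median log2 ratio of the 9 genes was -0.04 and that of all genes -0.03, with 3 genes above 0 and 6 below. The counting interval left out 0 for 6 genes and spanned it for Mt1, Tsc22d3 and Fkbp5, but it does not include the variation between animals.

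**Figure D4:**
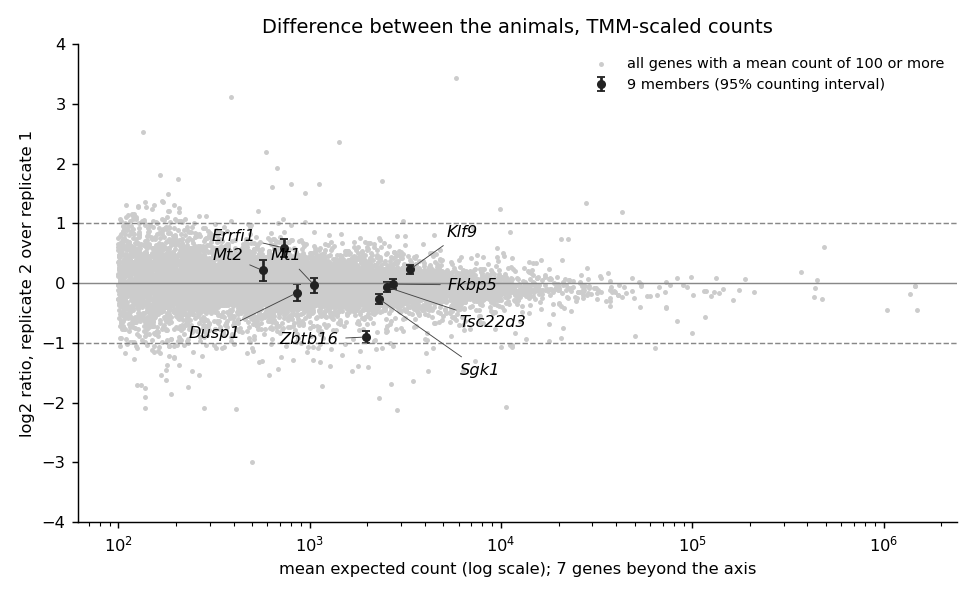
Log2 ratio of replicate 2 over replicate 1 on TMM-scaled counts against mean expected count (log scale) for the genes with a mean count of 100 or more; black points are the 9 members with 95% counting intervals, and dashed lines mark 2-fold. All members lie between the dashed lines, with Zbtb16 at -0.90 and Errfi1 at 0.59 as the outermost.

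Genes of the receptor pathway were expressed in both glands. Of 16 genes of the receptor pathway 14 were at 1 TPM or more in both animals, and 0 of the 14 with enough counts met the criteria in either direction. The receptor gene Nr3c1 was at 12.2 and 10.3 TPM, and the mineralocorticoid receptor gene Nr3c2, whose protein binds the same hormone, at 6.06 and 8.74 TPM. The most abundant genes of the list were Hsp90ab1, the heat shock protein that holds the receptor, at 1104 and 889 TPM, and the steroid exporter Abcb1b at 387 and 384 TPM. The median log2 ratio of the list was -0.37, lower than that of the 9 members or of all genes. Most of its genes with enough counts were below 0, and only Nr3c2, at 0.50, and Ncoa2, at 0.08, were above it. The genes for heat shock protein 90 and its co-chaperones were all lower in replicate 2. The ratio was -0.76 for Hsp90aa1, -0.42 for Hsp90ab1, -0.61 for Stip1, -0.53 for Ptges3 and -0.36 for Fkbp4. It was -0.38 for Nr3c1 and -0.06 for Abcb1b.

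A wider list of 19 glucocorticoid-induced genes did not move as 1 block. Of these, 16 had enough counts, 1 was called higher in replicate 2 and 3 lower, and the median log2 ratio was -0.24. Per1, a clock gene, had a level of 10.3 TPM in replicate 1 against 32.4 in replicate 2. Pdk4, which restrains glucose oxidation, was at 54.1 and 10.9 TPM, the lipid droplet gene Plin4 at 26.2 and 12.4 TPM and the lipase inhibitor gene Angptl4 at 12.8 and 5.91 TPM. These 3 lower genes are expressed in fat, and the adipocyte markers moved the same way, a relation that was not tested. The most abundant gene of the list, Rhob, was at 78.8 and 74.2 TPM.

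**Figure D5:**
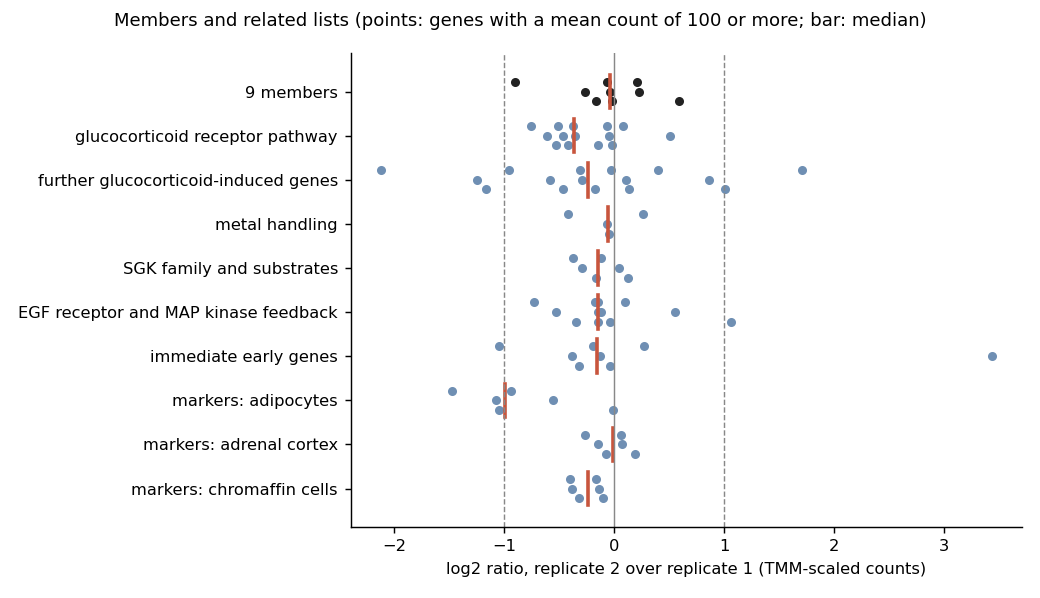
Log2 ratios of replicate 2 over replicate 1 for the 9 members and for 9 other lists; each point is a gene with a mean count of 100 or more, the red bar is the list's median and dashed lines mark 2-fold. The medians are -0.04 for the members, -0.37 for the receptor pathway, in which Nr3c2 lies at 0.50, and -0.99 for the adipocyte markers.

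Partners of the kinase members and of the metallothioneins were also measured. Of 10 genes listed for the SGK family and its pathway, not all of them SGK substrates, 6 had a mean count of 100 or more. Of these, 0 met the criteria. The list's most abundant genes were the ubiquitin ligase Nedd4 at 154 and 152 TPM and the SGK1 substrate Ndrg1 at 23.9 and 21.5 TPM. Sgk1 stood above its relatives, with Sgk3 at 2.58 and 2.11 TPM and Sgk2 at 0.50 and 1.05 TPM. Of 6 genes for metal handling 4 had enough counts and 0 of these met the criteria, with the zinc importer Slc39a14 at 11.3 and 15.5 TPM and the metal-sensing factor Mtf1 at 8.72 and 10.4 TPM. Mt3 was at 2.54 and 3.17 TPM and Mt4 was listed at 0 in both animals. Among 12 genes of the epidermal growth factor receptor and MAP kinase feedback 1 was called, the phosphatase Dusp5, at 1.67 and 3.72 TPM, and the highest was Dusp6 at 81.9 and 65.2 TPM.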

How the data were processed

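Gene and transcript tables of 2 adrenal libraries were used. Assembly mm10 and annotation M21 were used upstream, per the notes deposited with the files. Not given in the sources used here: programs, versions and whether counting used strand. The authors' expected counts are unnormalized estimates per feature. The deposited TPM is relative to every feature of the library, including tRNAs and spike-ins, and FPKM values were deposited per effective length and depth. Each transcript's percent of its gene was deposited too, and the percents printed here were recomputed from TPM. No source used here gives the level of the deposited TPM intervals.

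The members and gene lists were chosen with earlier results of these data known. Expected counts were scaled by TMM factors from edgeR 4.0.16 (R 4.3.3), with DESeq2 1.42.0 size factors as an alternative. Log2 ratios are replicate 2 over replicate 1 with 0.5 added, and 95% intervals cover counting error only. With 1 library a side no test was made. Depth was 40453707 and 34319787 expected counts, and 3 counts, taken as the floor, equal 0.0742 and 0.0874 CPM. All 9 members are named. By rule, the 2 highest genes and those called are named from other lists. Nr3c1, Nr3c2, Hsp90aa1, Stip1, Ptges3, Ncoa2, Sgk2, Sgk3, Mt3 and Mt4 were added after their values were seen. The values of 1 gene that this rule names are not reported here. Python 3.11.15 was run with pandas 2.3.3, numpy 2.4.6 and scipy 1.17.1, matplotlib 3.10.9 drew the figures, and the ratio step was tested on simulated data. Alternatives were other scalings, TPM, FPKM, the index-based table, other pseudocounts and count minimums, and each library left out.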

Additional observations from a re-analysis of the deposited data

How the results depend on the processing

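None of the 9 members met the criteria for a difference between the animals under any scaling, pseudocount, count minimum or table tried. The median log2 ratio of the members was 0.073 with TPM as deposited and 0.17 with the index-based table, against -0.04. These and plain library totals moved the median of all genes by 0.10, 0.10 and 0.09. With index-based TPM the members moved more than all genes, whose median there was 0.067. The scaled counts of the same index-based table did not show this move, and every member had the sign of its alignment-based ratio. Fkbp5, the middle member by index-based TPM, was at -0.003 on those counts. Over 6 settings the ratio of Zbtb16 ran from -0.93 to -0.74 and that of Errfi1 from 0.54 to 0.68. Mt2, Klf9 and Dusp1 also kept their sign in 6 of 6, Sgk1 in 5 of 6, and Mt1, Tsc22d3 and Fkbp5 in 3 of 6. The share of all genes called was 3.00% with a minimum mean count of 10 and 2.53% with no minimum. The median level of the members was 77.3 TPM when rescaled over nuclear protein-coding genes and 26.5 in FPKM. No paired analysis was possible because there is 1 group. With 2 animals, the spread between animals is poorly known, and depth was not the limit for members, which all had a mean count above 100.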

Other observations

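Among immediate early genes, which answer to acute stimulation, Nr4a1 had a level of 14.8 TPM in replicate 1 against 135 in replicate 2, and Fos at 4.76 and 2.42 TPM. These were the 2 genes that met the criteria, of 8 with enough counts in that list, 1 in each direction, while Jun, the next most abundant of the list, was at 43.7 and 37.3 TPM. Among 17 relatives of the 9 members, Tsc22d1, a paralog of Tsc22d3, was at 733 and 690 TPM, above any of the members, and Fkbp4, the co-chaperone related to Fkbp5, at 136 and 112 TPM. Of the 14 relatives with enough counts 1, Dusp5, met the criteria. Macrophage markers summed to 50.4 and 52.4 TPM and endothelial markers to 186 and 181 TPM, with 0 genes of these lists called. Lymphocyte markers summed to 0.88 and 0.77 TPM and had too few counts to be called. Markers of liver summed to 6.87 and 22.3 TPM, with Alb, called higher in replicate 2 and the 1 gene of that list with enough counts, at 5.56 and 18.7 TPM. Of the kidney markers, 3 of 4 were listed at 0 in both animals.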
